A study of Hordeum vulgare with 10 samples.

Results

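hvu-new74 is a predicted barley miRNA that had more counts than any other predicted miRNA listed at a single genomic position. It was chosen by this total, 4676 counts over 9 libraries, and is 1 of 142 miRNAs in the count table, of which 61 are known and 81 predicted. The total and the order it gives are therefore a description. Small RNA was taken from dry seeds of barley (Hordeum vulgare) cv. Damazy, of which the embryo with its scutellum was dissected. The study asked whether seed miRNAs differ with storage and with loss of viability. Lv seeds, of which 2% germinated, and Hv seeds, most of which still germinated, were stored from 1972 to 2018 and came from the same harvest, sealed in separate flasks. Rc seeds were regenerated in the field from high-viability seeds shortly before the end of this period and serve as the non-stored reference. The study's methods give the groups different water contents, Lv seeds having the highest. Each group had 3 libraries, and the replicates of a group are seeds of the same flask or field harvest, so that storage or viability cannot be told apart from flask, harvest or water content. The table holds miRNAs only, so the labelled tissue was not checked against marker genes.

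Plant miRNAs are cut by Dicer-like enzymes from RNA that folds into a hairpin. One strand of the cut duplex, the mature miRNA, guides an Argonaute protein to messenger RNAs that it pairs with along most of its length, while the other strand, the star, is mostly lost. In Arabidopsis, AGO1 favours miRNAs that start with U, and miRNAs of 22 nt are known to set off the production of secondary small RNAs from the messengers they cut.

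The mature sequence is shown first, because it shares no seed with the other abundant sequences of these seeds. It is 22 nt long with 50.0% GC and is listed on the plus strand of chromosome 2H at chr2H:131820742-131820763 of the build IBSC_v2. T stands for U, and the capitals mark bases 2 to 8, the stretch used to compare it with the 3 predicted miRNAs that had more counts.
hvu-new74: tTGATTTCgcggctcatcttgc
hvu-new80: tTTGGATTgaagggagctctg
hvu-new45: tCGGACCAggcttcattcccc
hvu-new54: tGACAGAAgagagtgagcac
None of the other 80 predicted miRNAs, and none of the 48 known sequences that could be compared, shared bases 2 to 8 with hvu-new74. The longest run of bases in common was 7 with a predicted miRNA and 5 with a known one. It began with U, as 50 of the 81 predicted miRNAs did. No other predicted miRNA had a listed position within 5000 bases of it. The study's list of predicted miRNAs assigned to known families does not name hvu-new74. That list names fewer miRNAs than the study's text reports as assigned, and it also leaves out hvu-new54. Absence from it therefore does not settle whether hvu-new74 belongs to a known family. Its predicted targets were not analysed here, because the study's list of them was available only in part. The gene annotation at its position was not analysed either, because no genome of that build was used.

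The hairpin is shown because the mature and star sequences lie directly against each other in it. Capitals mark the mature sequence in the hairpin, which is listed at chr2H:131820706-131820773 on the plus strand, and the 2 star sequences listed for it follow.
hvu-new74 hairpin: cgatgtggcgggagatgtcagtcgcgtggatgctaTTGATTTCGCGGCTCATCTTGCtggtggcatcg
hvu-new74 star form 1: atgtcagtcgcgtggatgcta
hvu-new74 star form 2: gatgtcagtcgcgtggatgct
By sequence, the mature miRNA filled positions 36 to 57 of the 68 nt, on the 3′ arm, and the star forms filled positions 15 to 35 and 14 to 34 on the 5′ arm. The listed coordinates would put its start at position 37 instead. The same shift of 1 base was present in 126 of 126 entries of the list on the plus strand, some of which repeat a position, so the coordinates are uncertain by 1 base. Between the star and the mature sequence lay 0 bases for form 1 and 1 base for form 2. Among the 28 predicted miRNAs whose star was found in a listed hairpin, the median distance was 38.5 bases, and 1 other, hvu-new29, had a distance of at most 1 base.

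**Figure D1:**
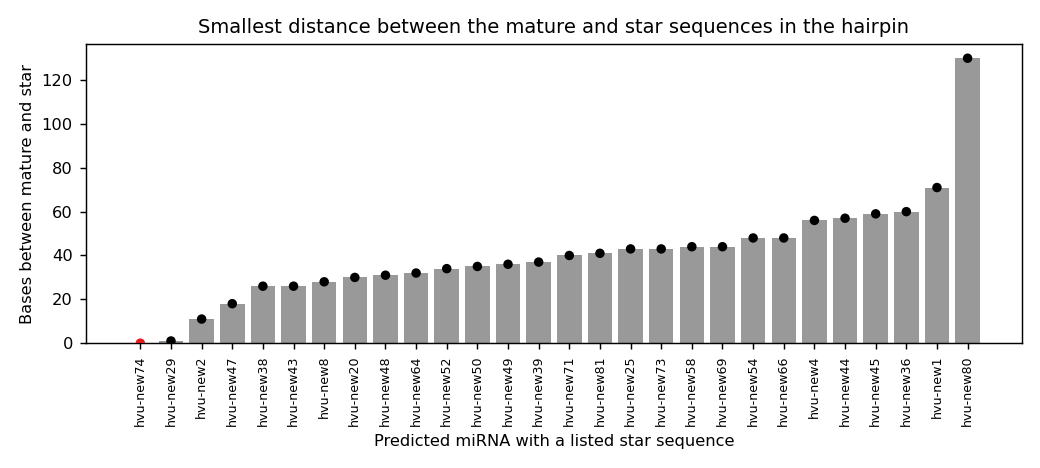
Smallest number of bases between the mature and the star sequence in the hairpin (y axis) for each of the 28 predicted miRNAs with a listed star (x axis), with hvu-new74 in red. hvu-new74 is at 0 and hvu-new29 at 1, against a median of 38.5.

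In the minimum free energy fold of the hairpin the mature sequence reached into the terminal loop. This loop covered positions 32 to 38 and held the first 3 bases of the mature sequence. In this fold 17 of the 22 mature bases were paired and 5 were not, and 14 were paired with star form 1. The fold energy was -28.7 kcal/mol, or -42.2 per 100 nt, against a median of -50.04 per 100 nt over the 94 distinct hairpins of predicted miRNAs. Of these, 29 had a higher (less stable) value. The hairpin was also short, with 68 nt against a median of 100.5, and 5 hairpins were shorter.

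The raw counts of hvu-new74 were 539, 439 and 1144 in Rc replicates 1 to 3. The Lv replicates had 145, 481 and 591 counts. The Hv replicates had 217, 529 and 591. The lowest value was that of Lv replicate 1, the library with the fewest counts in all. It was 1 of 14 predicted miRNAs with counts in all 9 libraries. By its count it ranked 5th of 142 miRNAs in 6 libraries, 6th in Lv replicate 2 and Hv replicate 3, and 7th in Lv replicate 1. A library held 7159 to 19542 counts if from Rc seeds, 3966 to 11209 if from Lv and 4179 to 14618 if from Hv.

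hvu-new74 took 5.28% of all counts of the table. The 1 known miRNA with more counts was miR159.6 (6376), an isomiR of the family that represses GAMYB-type transcription factors. The predicted miRNAs with more counts were hvu-new80 (25504), hvu-new45 (15705) and hvu-new54 (7892). These 3 repeat known miRNAs: hvu-new80 had exactly 4 times the counts of miR159.6 in all 9 libraries, hvu-new54 has the sequence of miR156.5 and exactly 4 times its counts, and hvu-new45 has the sequence of miR166.7. Each of the 3 has 4 listed positions. Of the 115 values above 0 of the 19 predicted miRNAs with several listed positions, 104 were whole multiples of the number of positions. For hvu-new74, with 1 listed position, this comparison cannot show a multiple. How the authors counted reads that match several positions is not known here. Without the 5 predicted miRNAs that repeat known ones, its total was the second of the table. Per listed position it had 4676 counts, between hvu-new80 with 6376 and hvu-new45 with 3926.

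Of the 62 predicted miRNAs with 1 listed position, the next below hvu-new74 were hvu-new62 with 1601 counts and hvu-new46 with 1445, so that hvu-new74 had 2.92 times the counts of the nearest. Among the 14 predicted miRNAs of 22 nt it held 56.8% of the counts. The second of these, hvu-new52, had 2940 counts over 3 positions, and the median of the other 13 was 20. The predicted miRNAs of 21 nt numbered 45 and those of 20 nt numbered 22.

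**Figure D2:**
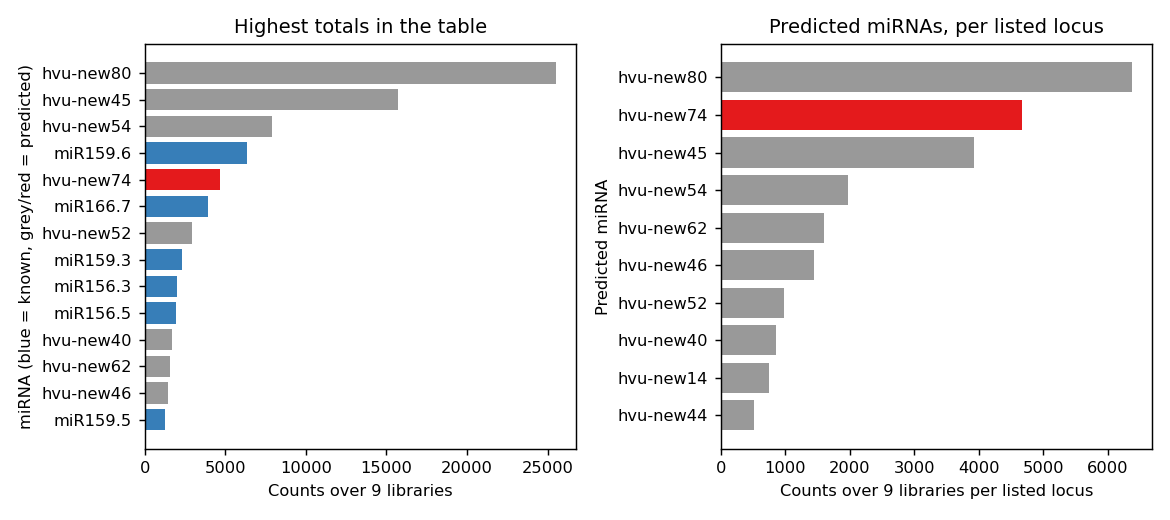
Left, counts summed over the 9 libraries (x axis) for the 14 miRNAs with the highest totals, known in blue, predicted in grey and hvu-new74 in red. Right, the same total divided by the number of listed positions for the 10 leading predicted miRNAs. hvu-new74, at 4676, is the fifth bar on the left and the second on the right.

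As a share of the counts of its library, hvu-new74 was higher in every Rc library than in every stored one. The libraries are bulk samples, in which fewer cells that carry a miRNA and less of it per cell cannot be told apart. The share, with its exact (Clopper-Pearson) 95% interval, was 6.73% (6.19 to 7.30), 6.13% (5.59 to 6.71) and 5.85% (5.53 to 6.19) in Rc. The Lv libraries had 3.66% (3.09 to 4.29), 4.65% (4.25 to 5.07) and 5.27% (4.87 to 5.70). The Hv libraries had 5.19% (4.54 to 5.91), 5.59% (5.13 to 6.07) and 4.04% (3.73 to 4.38). The means were 6.24% ± 0.448 in Rc, 4.53% ± 0.815 in Lv and 4.94% ± 0.802 in Hv (SD, n = 3). The intervals cover counting error only and can understate it, since they take each count of a library as a separate read. The totals hold repeats (hvu-new80 has exactly 4 times the counts of miR159.6), and reads amplified by PCR are not independent molecules. The intervals of Lv replicates 1 and 3 do not meet. For these reasons that does not show a difference beyond counting error.

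With each multiple position counted once and the repeats of known miRNAs left out, a calculation added after the data had been seen, the share was higher throughout. The Rc libraries then had 16.5%, 15.3% and 14.9%, the Lv libraries 8.68%, 12.01% and 13.3%, and the Hv libraries 12.2%, 13.98% and 10.3%. On this scale, which uses the same counts of hvu-new74, the stored libraries also lay below the Rc libraries without overlap. How many other miRNAs did so on this scale was not counted.

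After TMM normalization the level of hvu-new74 was 63539, 57885 and 65428 CPM (counts scaled to a common library size) in the Rc libraries. The Lv libraries had 31362, 49101 and 57532 CPM. The Hv libraries had 47539, 54639 and 46498 CPM. The order of the group means was Rc (62284 ± 3925), Hv (49558 ± 4431) and Lv (45999 ± 13358; SD, n = 3 each). All 6 stored libraries lay below the 3 Rc libraries, although Lv replicate 3 missed the lowest Rc library by little. Lv and Hv overlapped. Groups without overlap and lower in storage were found for 3 of 99 tested miRNAs (3.03%), namely hvu-new74, hvu-new60 and hvu-new61, and the last 2 had no counts in any stored library. hvu-new60 and hvu-new61 were named after their values had been seen. The number of such miRNAs was 3 with size factors or total counts, but 5 with TMM after the repeats were left out and 7 with TMM on known miRNAs, hvu-new74 among them each time. With mapped reads as the scale it was 6, and hvu-new74 was not among them, since 5 of its 6 stored libraries lay below the lowest Rc library. For Lv against Rc alone the background was 12.1% of the 99 miRNAs and for Hv against Rc it was 6.06%, so that lack of overlap was not rare between groups of 3.

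**Figure D3:**
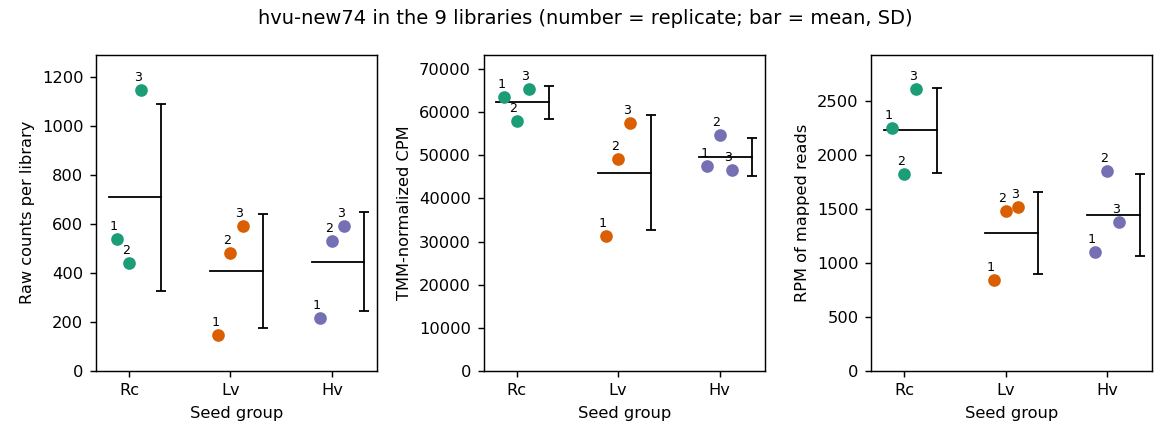
Level of hvu-new74 in each library (points, numbered by replicate) for the groups Rc, Lv and Hv as raw counts, TMM-normalized CPM and reads relative to mapped reads (RPM), with the group mean (horizontal line) and SD (bar). In CPM the stored libraries reach 57532 and the Rc libraries start at 57885, while in RPM Hv replicate 2 (1846) is above Rc replicate 2 (1825).

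In stored seeds hvu-new74 was at 0.767 times its level in Rc by edgeR's quasi-likelihood test (log2 fold change -0.38, SE 0.18, 95% interval -0.77 to 0.01), which did not pass the threshold (adjusted p = 0.522). No miRNA passed an adjusted p of 0.05 in this comparison (0%), and 9 of 99 had an unadjusted p below 0.05. hvu-new74 was 10th by p and thus not among these 9. The median log2 fold change over the 99 miRNAs was -0.02. For the 10 known isomiRs with the highest totals the median was 0.08, the values ran from -0.27 to 0.58, and 7 of 10 were above 0. The single-position predicted miRNAs with counts in all libraries that came next by total had log2 fold changes of 0.20 (hvu-new62), 0.11 (hvu-new46) and -0.17 (hvu-new44), and none of these 3 passed the test (edgeR adjusted p = 0.871, 0.983 and 0.890).

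Each stored group on its own had a lower fitted level than Rc and neither difference passed the test. In Lv hvu-new74 was at 0.739 times its level in Rc (edgeR log2 fold change -0.44, SE 0.21, 95% interval -0.92 to 0.05, adjusted p = 0.466). This value rests in part on Lv replicate 1, without which it was -0.22. In Hv it was at 0.796 times its level in Rc (edgeR log2 fold change -0.33, SE 0.21, 95% interval -0.81 to 0.16, adjusted p = 0.884). Between Lv and Hv, which were stored for the same time and differ in viability, the log2 fold change was -0.11 (SE 0.21, 95% interval -0.59 to 0.38, edgeR adjusted p = 0.986). The interval spans a fall and a rise, and the sign turned to 0.11 without Lv replicate 1. In these 3 comparisons 0% of the 99 miRNAs passed by edgeR, and 9 (Lv against Rc), 6 (Hv against Rc) and 5 (Lv against Hv) had an unadjusted p below 0.05. The comparisons with Rc share its 3 libraries.

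**Figure D4:**
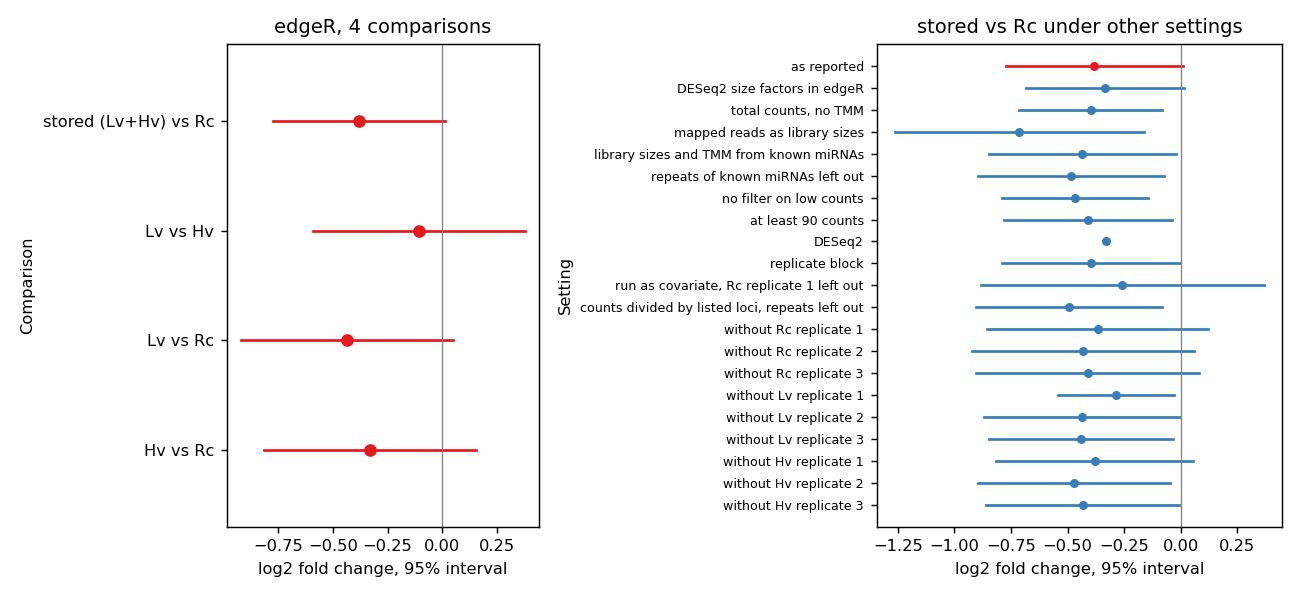
Left, edgeR log2 fold change of hvu-new74 (x axis, point) with its 95% interval (line) in 4 comparisons. Right, stored seeds against Rc under each other setting (blue) beside the reported one (red), with no interval drawn for DESeq2. All settings on the right lie below 0, from -0.71 to -0.26.

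The sequencing run moved with the groups. Rc replicates 2 and 3 and Hv replicates 1 and 2 came from run 1, all Lv libraries and Hv replicate 3 from run 2, and Rc replicate 1 was sequenced in both, the run behind its counts being unknown here. Within run 1, hvu-new74 averaged 61657 CPM in the 2 Rc libraries and 51089 CPM in the 2 Hv libraries, a log2 difference of -0.27. A fit of these 4 libraries alone, added after the data had been seen, gave the same log2 fold change (SE 0.13, 95% interval -0.67 to 0.13, edgeR adjusted p = 0.845). Run 2 gave no such value. With run in the model and Rc replicate 1 left out, the edgeR log2 fold change of stored seeds was -0.26 (adjusted p = 0.914). All Rc libraries left in that fit came from run 1, so its value rests on the Rc and Hv libraries of run 1. It is the same value as for Hv against Rc in that setting. The Lv libraries, all from run 2, do not inform it, so it is not a separate check on all stored seeds.

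Against the mapped reads of each library, which do not depend on the other miRNAs of the table, the level of hvu-new74 was 2247, 1825 and 2612 RPM in the Rc libraries. The Lv libraries had 836, 1483 and 1512 RPM. The Hv libraries had 1098, 1846 and 1374 RPM. Here Hv replicate 2 was above Rc replicate 2, so that stored and Rc libraries overlapped. The log2 difference between stored and Rc seeds was -0.74 (exact two-sided permutation test, p = 0.0476, where the smallest possible is 0.0238). The p was above 0.05 when any 1 library other than Hv replicate 2 was left out. Without an Rc library this was fixed in advance, since 6 libraries against 2 allow no p below 0.0714. With Lv against Rc (-0.84, exact permutation p = 0.1), Hv against Rc (-0.65, p = 0.2) and Lv against Hv (-0.19, p = 0.7), 3 libraries against 3 could not reach a p below 0.1. RPM moved for the table as a whole: with mapped reads as library sizes in edgeR the median of all 99 miRNAs was -0.35, and hvu-new74 at -0.71 lay 0.36 below it, as it lay 0.37 below the median with TMM. The same fit gave -0.80 for Lv and -0.63 for Hv against Rc. In the table, known miRNAs had more counts than a library had reads matched to miRNAs, by a factor of 1.58 to 2.53 for Rc, 1.297 to 1.73 for Lv and 1.17 to 2.25 for Hv. Whether the counts of hvu-new74 carry this factor, and its part in the RPM difference, was not tested.

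A ratio of 2 miRNAs within a library needs no library size. hvu-new74 was set against the 10 known isomiRs with the highest totals, which belong to the families miR156, miR159, miR166 and miR168. All 10 ratios had a lower mean of log2 in stored than in Rc seeds, with a median difference of -0.47. Of the 10 exact permutation tests, 4 gave a p below 0.05 and 0 did after Benjamini-Hochberg adjustment over the 10. The ratios share the counts of hvu-new74 and are not 10 separate measurements. How often ratios of other miRNAs to these isomiRs lack overlap between stored and Rc seeds was not counted.

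The ratio to miR159.6, the most counted known isomiR, was 0.956, 0.944 and 0.798 in the Rc libraries. The Lv libraries had ratios of 0.653, 0.626 and 0.673. The Hv libraries had ratios of 0.838, 0.784 and 0.532. hvu-new74 thus had fewer counts than miR159.6 in all 9 libraries, and Hv replicate 1 overlapped with Rc. The log2 difference was -0.40 (exact permutation p = 0.0476, adjusted p = 0.119).

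miR166 isomiRs belong to the family that targets HD-ZIP III transcription factors. The ratio of hvu-new74 to miR166.7 was 1.63, 1.38 and 1.38 in Rc libraries, 0.767, 0.930 and 1.17 in Lv libraries, and 1.14, 1.25 and 0.923 in Hv libraries. hvu-new74 was ahead of miR166.7 in 6 libraries, including every Rc library, and behind it in 3 stored ones. Stored libraries did not overlap with Rc (log2 difference -0.52, exact permutation p = 0.0238, the smallest possible, adjusted p = 0.0794). The ratio to miR166.6 did not overlap either, at 16.8, 17.6 and 19.4 in the Rc libraries. The Lv libraries had 7.25, 9.08 and 10.9 and the Hv libraries 13.6, 15.6 and 7.68 (log2 difference -0.80, exact permutation p = 0.0238, adjusted p = 0.0794). miR166.7 and miR166.6 themselves had edgeR log2 fold changes of 0.12 and 0.43 in stored seeds. Neither passed the test (edgeR adjusted p = 0.871 and 0.690).

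The widest difference was in the ratio to miR159.5, which was 6.06, 6.55 and 4.54 in Rc libraries, 1.54, 3.08 and 3.34 in Lv libraries, and 3.01, 4.10 and 2.49 in Hv libraries. Stored seeds had 0.499 times the ratio of Rc (log2 difference -1.004, exact permutation p = 0.0238, adjusted p = 0.0794). miR159.5 itself had an edgeR log2 fold change of 0.58 in stored seeds, which did not pass the test (adjusted p = 0.335). At the other end, the ratio to miR156.5 was 2.87, 2.13 and 2.45 in Rc libraries, 1.54, 2.56 and 3.00 in Lv libraries, and 2.31, 2.74 and 1.71 in Hv libraries. miR156 targets SPL transcription factors. This ratio overlapped fully between stored and Rc seeds, with a log2 difference of -0.14 (exact permutation p = 0.619, adjusted p = 0.619). The remaining 5 differences ran from -0.88 (miR159.3) to -0.27 (miR168.10, of the family that targets AGO1 in Arabidopsis), and none of these 5 had a p below 0.05. Within run 1, both Hv libraries lay below both Rc libraries in 4 of the 10 ratios, those to miR166.7, miR159.5, miR166.6 and miR168.10.

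**Figure D5:**
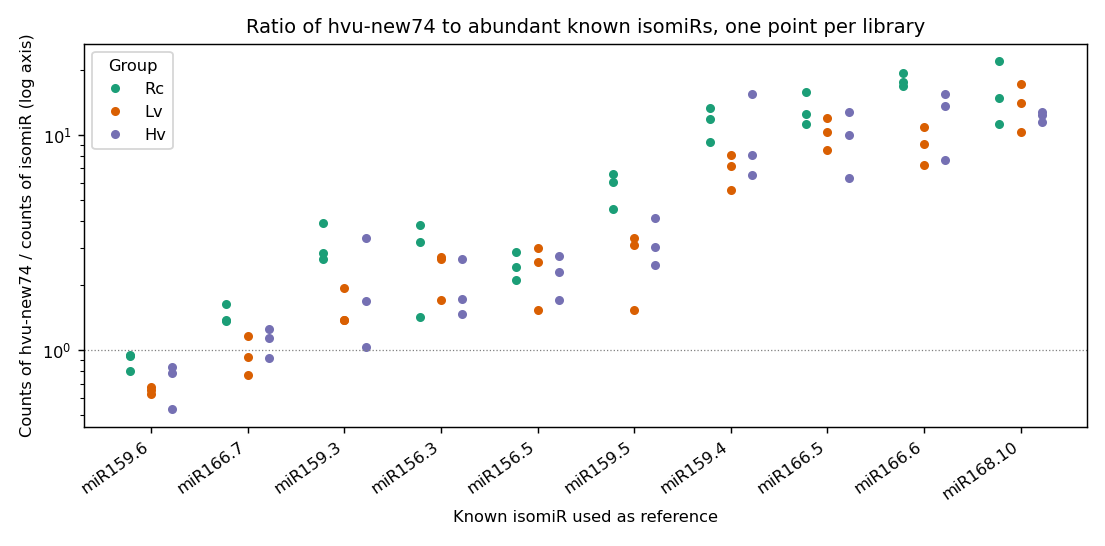
Counts of hvu-new74 divided by the counts of each of 10 known isomiRs (x axis) on a log axis, 1 point per library, coloured by group; the dotted line marks equal counts. Rc points lie above all stored points for miR166.7, miR159.5 and miR166.6, and every point for miR159.6 lies below 1.

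The miRNAs most like hvu-new74 across the libraries were sought as those with the smallest SD of the log2 ratio to it over the 9 libraries, among the 34 other miRNAs with counts in every library. The nearest was miR159.6 with an SD of 0.284, and hvu-new80, which repeats its counts, had the same value. hvu-new43, which has the sequence of miR168.10, followed with 0.302, then hvu-new44 with 0.306 and hvu-new54 with 0.329. The median SD was 0.472 and the highest 1.05. These values include the sampling error of the counts, which is smaller for abundant miRNAs, and they are a description without a test.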

How the data were processed

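Small RNA libraries were sequenced by the authors in 2 runs. After quality and length filtering and mapping to the genome, the authors used miRProf to count known miRNAs and miRCat to predict others, and they deposited raw counts of 142 miRNAs in 9 libraries, without normalization. Another 9 columns, 1 of normalized values per library, and the authors' own columns of fold changes and p-values were not used. Library totals were 3966 to 19542 counts.

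From the raw counts, edgeR 4.0.16 (R 4.3.3) was run with TMM on the 99 miRNAs with at least 10 counts, using its quasi-likelihood test and a threshold of 0.05 on p adjusted after Benjamini and Hochberg. Standard errors were derived from each fit's means and dispersion. Stored against Rc was fitted in 2 classes and the other comparisons in 3 groups. RPM used the mapped reads per library given by the study. RPM and ratios were tested on log2 values with a pseudocount of 1 by exact two-sided permutation (scipy 1.17.1). The hairpins were folded with RNAfold 2.7.2. The fits were also run on simulated data in which all miRNAs had the same spread and were drawn separately. The simulation therefore does not show how the fits behave on the repeated counts here. Libraries of 1 group differed in a chi-square test that took each count as a separate read. Multiplied and repeated counts enlarge its value, so it does not show a difference beyond sampling noise. All libraries were kept.

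hvu-new74 and the lists were chosen with earlier results of these data known. The rule named hvu-new74, the leading 10 known and 10 predicted miRNAs by total count, the 5 most like it, those sharing bases 2 to 8 or 12 bases in a row, and 22 nt predicted miRNAs by count. hvu-new29 and hvu-new2, hvu-new28, hvu-new49, hvu-new60, hvu-new61 and hvu-new69 fall outside it and were named after their values were seen. Alternatives were other scalings, filters, DESeq2 1.42.0, a replicate block, run as a covariate, other pseudocounts, family sums, leaving out each library and, added after seeing the data, counts divided by the listed positions and the libraries of run 1 alone.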

Additional observations from a re-analysis of the deposited data

Results flagged for a closer look

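The ratio of hvu-new74 to miR159.4 in stored seeds had 1 library far from the others. Hv replicate 2 was at 15.6 and the other 5 stored libraries lay between 5.58 and 8.10, so that the gap took 0.748 of the whole range, above Dixon's 95% critical value for 6 libraries. Of 13 values tested in this way this was the 1 past its limit, where chance gives about 1 in 20 for each value tested. The 13 values share the counts of hvu-new74. With that many tested, 1 past the limit does not show an unusual library.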

How the results depend on the processing

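The log2 fold change of hvu-new74 in stored seeds kept its sign under all 20 other edgeR or DESeq2 settings, from -0.71 (mapped reads as library sizes) to -0.26 (run as a covariate). The adjusted p stayed between 0.214 and 0.914, and the unadjusted p was below 0.05 in 14 of the 20. Across these settings, from 6 miRNAs (as with DESeq2, of 99) to 15 (without a filter on low counts, of 142) had an unadjusted p below 0.05. The settings reuse the same libraries and are not separate tests. Lv against Rc (-0.80 to -0.22) kept its sign in all 20, Hv against Rc (-0.63 to -0.26) in all 21, run 1 alone included, and Lv against Hv (-0.30 to 0.11) in 19, turning to 0.11 (adjusted p = 0.970) without Lv replicate 1. Counts divided by the listed positions, added after seeing the data, gave -0.50 (edgeR adjusted p = 0.353) for stored seeds.

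The libraries share replicate numbers that nothing in the labels ties to a shared origin. Same-numbered libraries had correlations of -0.25 to 0.23 over 9 pairs, 1 of them above 0.1, and 3 of 9 libraries correlated best with their own number. With the replicate block the log2 fold change of stored seeds was -0.40 (edgeR adjusted p = 0.447), that of Lv against Hv -0.13, that of Lv against Rc -0.47 and that of Hv against Rc -0.33, and 0 miRNAs passed in any of them.

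The number of miRNAs past an adjusted p of 0.05 was 0 as reported and hvu-new74 was never among them. For stored against Rc it was 2 without a filter on low counts (hvu-new2 and hvu-new60), 3 with DESeq2 (these and miR159.5), 2 with counts divided by the listed positions (hvu-new2 and hvu-new60), and 0 to 1 with each library left out (hvu-new2 without Hv replicate 1, hvu-new49 without Hv replicate 2). For Lv against Rc it was 1 without a filter (hvu-new2), 2 with DESeq2 (hvu-new2 and miR159.5) and 0 to 1 with each library left out (hvu-new28 without Lv replicate 3, hvu-new2 without Hv replicate 1, hvu-new49 without Hv replicate 2). For Hv against Rc it was 1 with DESeq2 (hvu-new2) and 0 to 1 with each library left out (hvu-new2 without Hv replicate 1, hvu-new69 without Hv replicate 3). For Lv against Hv it was 0 to 1 with each library left out (hvu-new28 without Lv replicate 3, hvu-new69 without Hv replicate 3). The cause was not tested.

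The RPM difference ran from -0.88 to -0.61 with each library left out, with an exact permutation p of 0.0357 to 0.143, and 6 libraries against 2 allow no p below 0.0714. All 10 ratios to known isomiRs kept their sign under 12 settings with 0 passing the adjustment. The number with an exact permutation p below 0.05 ran from 0 without any 1 Rc replicate to 7 with family sums. Without 1 Rc replicate the floor of 0.0714 fixed both numbers at 0 in advance. Depth was lowest in Lv replicate 1, where 145 counts left an exact 95% interval of 3.09% to 4.29% for the share of hvu-new74.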
